A study of Mus musculus with 116 samples.

Results

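Joining of a zinc-finger nuclease break was compared between cells that lacked both DNA ligase 4 (Lig4) and Ku70 and the same clones with Ku70 put back. The experiment took 12 of the 116 samples of the series, as 3 libraries in each of 4 groups: Lig4-/-Ku70-/- clone D1, Lig4-/-Ku70-/- clone D1 with added Ku70 (labelled +Ku70), and the same pair for clone D2. They were chosen by title and nuclease label, without a threshold on any measured value. All 12 libraries came from v-Abl pro-B cells, mouse B-lineage precursors immortalised with the v-Abl oncogene, that carried the Emu-Bcl2 transgene, which protects arrested cells from death. Every group was arrested in G1 for 96 h by STI-571, which inhibits the Abl kinase, at a dose of 3 µM, and doxycycline at 2 µg/ml induced ZFN-Eb, a nuclease directed at Eb, the Tcrb enhancer. Lig4 was absent from all 4 groups, so the added Ku70 acted in cells without the ligase of classical end joining. Each clone is 1 cell line, and how D1 and D2 relate to the Lig4-/- clone D used for comparison is not stated in the labels. The labels do not say that replicates came from separate cultures, so p-values measure the spread between these libraries, which may be technical.

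Ku70 and its partner Ku80 form the ring-shaped Ku heterodimer, which slides onto DNA ends, holds them against nuclease resection and recruits Lig4 with its cofactor XRCC4. When Ku and Lig4 are missing, ends can still be sealed by alternative end joining, a set of pathways in which resected ends anneal at short shared sequences (microhomology) and are ligated by Lig1 or Lig3. Arrested v-Abl pro-B cells also express the RAG recombinase, which cuts at the V and J segments of the antigen receptor loci, so a nuclease break has RAG breaks as possible partners.

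The libraries read DNA with a primer on 1 side of the break (the bait) and record the sequence to which that side was joined (the prey), by linear amplification and NextSeq sequencing. In libraries of Lig4-/- clone D with Lig4 added, the most frequent last bait base was chr6:41554976 in the mm10 build. Prey starts there were most frequent at chr6:41554977 and chr6:41554981. The break lies in the Tcrb locus (chr6:40891296-41558371), between the constant segment Trbc2, which ends at 41548181, and the variable segment Trbv31, which starts at 41557693, and in neither of them. The first sequence is the unbroken region, chr6:41554937-41555016 on the forward strand, as assembled from reads, with the 4 bases between those prey starts in capitals. The joints after it are the 5 with the highest mean share of local joins over the 6 Lig4-/-Ku70-/- libraries (joints 1 to 5) and the 5 with the highest mean share over the 6 +Ku70 libraries (joint 1 again and joints 6 to 9). Capitals in a joint mark bases that both bait and prey could have supplied.
unbroken region: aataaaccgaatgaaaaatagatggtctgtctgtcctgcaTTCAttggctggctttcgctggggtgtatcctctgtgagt
joint 1: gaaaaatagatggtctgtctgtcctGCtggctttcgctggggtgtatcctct
joint 2: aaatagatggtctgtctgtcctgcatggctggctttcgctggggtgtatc
joint 3: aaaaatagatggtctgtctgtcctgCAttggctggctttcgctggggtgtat
joint 4: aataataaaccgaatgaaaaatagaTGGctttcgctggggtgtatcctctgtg
joint 5: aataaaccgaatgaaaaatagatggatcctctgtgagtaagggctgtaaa
joint 6: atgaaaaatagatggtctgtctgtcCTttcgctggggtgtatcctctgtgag
joint 7: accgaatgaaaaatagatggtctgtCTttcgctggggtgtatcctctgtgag
joint 8: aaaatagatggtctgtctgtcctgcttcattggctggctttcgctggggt
joint 9: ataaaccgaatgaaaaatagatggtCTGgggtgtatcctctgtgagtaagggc

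Joints 1 to 9 removed 10, 5, 4, 27, 42, 17, 22, 1 and 32 bp in turn. Joints 6 and 7 start at the same prey base, 41554989, and share the letters CT with it at different bait bases, 41554973 and 41554968. Partners outside the break region are shown by reads from Lig4-/-Ku70-/- cells, with the bait in lower case and what follows it in capitals. The first runs into the Jk1 segment Igkj1 (chr6:70722562-70722599), and 9 joins of the 6 Lig4-/-Ku70-/- libraries had this junction. The second lies at chr14:54146655 in the Tcra locus, where the annotation also places Tcrd. The third lies at chr17:56349264 within Kdm4b, a histone demethylase gene. The last is a read from +Ku70 clone D2 replicate 1, listed with a prey on chromosome 8 and shown because reads like it made up most of the interchromosomal list.
Igk join: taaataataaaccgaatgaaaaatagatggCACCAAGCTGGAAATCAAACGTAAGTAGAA
Tcra join: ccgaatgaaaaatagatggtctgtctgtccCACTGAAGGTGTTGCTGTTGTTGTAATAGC
Kdm4b join: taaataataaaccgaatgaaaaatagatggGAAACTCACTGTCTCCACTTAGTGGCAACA
G-rich chromosome 8 join: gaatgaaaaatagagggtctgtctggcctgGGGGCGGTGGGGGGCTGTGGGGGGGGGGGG

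Libraries were compared as joins per 100000 raw reads, the raw-read number of every library being 600000 per the labels. The lists held 6164 to 17254 joins in the 6 Lig4-/-Ku70-/- libraries and 161 to 2202 in the 6 +Ku70 libraries. The replicates of +Ku70 clone D2 were far apart, with 2202, 196 and 161 joins. Read names place replicate 1 of both D2 groups on 1 sequencing run, replicates 2 and 3 of both on another, and all 6 D1 libraries on 1 further run. Groups were therefore also compared within runs. The main test relabelled libraries within each clone in all 400 ways and averaged the effects of the clones (two-sided exact permutation test, smallest possible p 0.005). Adjusted p-values are over 64 tests: for each of 32 measures, this test and a test of the difference between the clones' changes. A test of 1 clone alone cannot go below 0.1.

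Local joins, in which the broken end was rejoined within 100 kb on chromosome 6, fell in every +Ku70 library. Clone D1 had 15943, 15375 and 15703 local joins without Ku70 and 921, 701 and 589 with it, or 2612 ± 47.5 against 122.8 ± 28.2 per 100000 raw reads (SD, n = 3 each). Clone D2 had 14315, 14732 and 5525 without Ku70 and 741, 69 and 25 with it, or 1921 ± 867 against 46.4 ± 66.9 per 100000 (SD, n = 3 each). The groups did not overlap in either clone. The fall was 21.6-fold in D1 (log2 change -4.43 ± 0.19 SE) and 96.1-fold in D2 (-6.59 ± 1.51 SE), 45.6-fold on average (log2 change -5.51, exact permutation p = 0.005, adjusted p = 0.0188). Within runs the exact p was 0.00833, the smallest that relabelling within runs can give. With each distinct junction counted once the log2 change was -2.79 (exact permutation p = 0.005). The clones' changes differed by 2.15 ± 1.53 (SE) on the log2 scale, with an exact permutation p of 0.62. That test relabelled libraries within each clone, so its reference spread holds the effect of Ku70 itself. It cannot decide whether the clones' changes differ or are alike.

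Joins that lost at most 10 bp beyond the break and joins that lost more both fell. Direct joins within 10 bp numbered 6884, 7104 and 7031 in D1 without Ku70 and 368, 311 and 227 with it, and 8286, 6844 and 3383 against 310, 30 and 13 in D2. Their log2 change was -5.70 (exact permutation p = 0.005, adjusted p = 0.0188). Direct deletions from 11 bp to 100 kb numbered 9050, 8267 and 8665 against 547, 383 and 355 in D1, and 6025, 7886 and 2140 against 427, 39 and 12 in D2. Their log2 change was -5.33 (exact permutation p = 0.005, adjusted p = 0.0188). Neither class overlapped between groups in either clone. Inverted local joins were rare throughout, with 1 to 5 per library without Ku70 and 0 to 5 with it, and a change in their number was not detectable at this depth (log2 change -0.59, exact permutation p = 0.29).

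**Figure D1:**
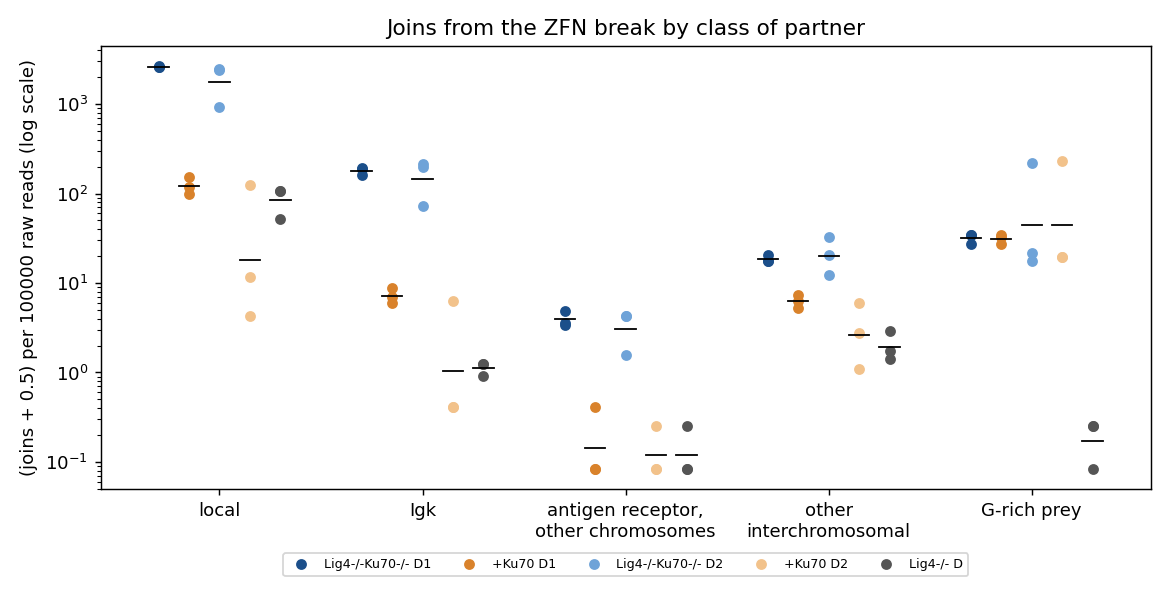
Joins of 5 classes in each library, as (joins + 0.5) per 100000 raw reads on a log scale; points are the 3 libraries of a group and bars their geometric means. Local, Igk and antigen receptor joins of the +Ku70 libraries all sit below those of their own clone without Ku70, whereas G-rich prey joins lie at like levels in both groups of a clone.

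Joins to the Igk light-chain locus, 26.0 Mb or more along chromosome 6, also fell in every +Ku70 library. Clone D1 had 971, 1124 and 1160 Igk joins without Ku70 and 52, 41 and 35 with it. Clone D2 had 1272, 1202 and 432 without Ku70 and 37, 2 and 2 with it. The groups did not overlap in either clone, and the log2 change was -5.90 (25.4-fold in D1 and 141-fold in D2, exact permutation p = 0.005, adjusted p = 0.0188). The log2 ratio of local to Igk joins changed by 0.39, which did not pass the test (exact permutation p = 0.09, adjusted p = 0.24). It passed without +Ku70 D2 replicate 3 (0.59, exact permutation p = 0.005), with Igk joins falling further. With each distinct fragment counted once it was 0.74 (exact permutation p = 0.01), and with each distinct junction counted once 3.10 (exact permutation p = 0.005). Those counts shrank the local fall, to -5.16 and -2.79, because repeated local rows collapse. The Igk joins were nearly all distinct and still changed by -5.90 and -5.89. These counts therefore cannot decide whether Igk joins fell further. Of the 6161 Igk joins without Ku70, 72.1% lay within 50 bp of an annotated Vk segment, 10.1% within 50 bp of a Jk segment and 17.9% near neither. Of the 169 with Ku70 the shares were 72.2%, 8.88% and 18.9%. These shares pool the libraries of a group and were not tested.

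The Vk and Jk segments with the most joins are given with their numbers summed over the 6 libraries of each kind. Igkv1-135 (chr6:67609745-67610508) held 595 joins without Ku70 and 18 with it, or 9.66% and 10.7% of all Igk joins. Igkv6-32 (chr6:70074024-70074584) held 504 and 13, or 8.18% and 7.69%. Igkj1, the first Jk segment, held 470 and 13, or 7.63% and 7.69%. Igkv1-117 held 396 and 9, Igkv8-30 held 358 and 8, and Igkv11-114, annotated as a pseudogene, held 199 and 10. Joins lay near 119 of the 167 annotated Vk and Jk segments over all 12 libraries, from 6330 Igk joins, and near 50 of them in the +Ku70 libraries, from 169. The 169 Igk joins of the +Ku70 libraries were 169 distinct fragments, and 6 of these also occurred in a Lig4-/-Ku70-/- library. Among the Lig4-/-Ku70-/- libraries, 20 of 971 fragments recurred in D1 replicate 1 and 14 of 432 in D2 replicate 3. Counted as distinct joints, 49 of 169 with Ku70 also occurred in a Lig4-/-Ku70-/- library, against 194 of 970 and 102 of 432 in those 2 libraries. Recurrence was not tested.

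Joins to antigen receptor loci on other chromosomes fell as well, at lower numbers. Joins with a prey other than the G-rich kind described next fell on Tcra (chromosome 14), Tcrg (chromosome 13), Igl (chromosome 16) or Igh (chromosome 12) 21, 20 and 29 times in D1 without Ku70 and 2, 0 and 0 times with it. In D2 the numbers were 25, 25 and 9 without Ku70 and 1, 0 and 0 with it. The groups did not overlap, and the log2 change of the summed number was -4.73 (exact permutation p = 0.005, adjusted p = 0.0188), a value that depends on the added 0.5 because 4 of the 6 +Ku70 libraries were at 0. By locus, the Lig4-/-Ku70-/- libraries held 53 Tcra, 35 Tcrg, 36 Igl and 5 Igh joins, and the +Ku70 libraries held 3 Tcrg joins and none at the other loci. A count of 0 in a library allows up to 3 joins, counting error only.

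Interchromosomal joins as listed did not separate the groups in a test over all libraries. Clone D1 had 298, 320 and 329 without Ku70 and 217, 227 and 197 with it, and clone D2 had 1486, 272 and 181 without Ku70 and 1370, 119 and 129 with it. The D1 groups did not overlap and the D2 groups did. The log2 change was -0.58 (exact permutation p = 0.405, adjusted p = 0.762). Relabelled within runs, the same change had an exact p of 0.00833, and each +Ku70 library was below the library of the same number in its clone, by 0.12 to 1.19 on the log2 scale. Replicate 1 of both D2 groups, which share a run, held most of the interchromosomal joins of clone D2.

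Most of these rows had a prey segment that was nearly all guanine. A prey of at least 80% G was found in 4116 of the 5145 interchromosomal joins of the 12 libraries (80%), against none of the local joins and none of the Igk joins. The prey segments fell into separate kinds: only 28 of all 96560 joins had a prey between 50% and 80% G. The G-rich prey was short, with library medians of 38 to 42 nt against 93.5 to 152.5 nt for other interchromosomal prey. An unaligned gap between bait and prey preceded 89.8% of G-rich prey and 4.18% of other interchromosomal prey. The example read above shows the pattern.

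The number of G-rich joins did not separate the groups. Clone D1 had 165, 204 and 205 without Ku70 and 195, 205 and 162 with it, and clone D2 had 1322, 131 and 106 without and 1387, 117 and 118 with it, chromosome 6 included. The groups overlapped in both clones (log2 change -0.01, exact permutation p = 0.965). Their share of interchromosomal joins was 57.2% ± 4.57 without and 82.1% ± 3.84 with Ku70 in D1, and 61.7% ± 20.8 without and 93.3% ± 5.09 with Ku70 in D2 (SD, n = 3 each), a difference of 28.3 percentage points (exact permutation p = 0.005, adjusted p = 0.0188). Libraries of Lig4-/- clone D, with and without added Lig4, held 0 to 6 G-rich joins each. Every 10-kb window that held at least 1% of interchromosomal joins, as a mean over the 12 libraries, was of this kind: G-rich prey made up all 108 joins on chromosome 14 in Lrch1, all 42 on chromosome 4 at Tgif2-ps1, 78 of 79 in a window on chromosome 4 without a gene, and all 244 in a window on chromosome 8 without a gene. The cause of the G-rich rows was not tested, and interchromosomal results are therefore given with and without them.

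Without the G-rich prey, interchromosomal joins fell with Ku70 in both clones. Clone D1 had 143, 126 and 135 without Ku70 and 33, 37 and 44 with it, or 22.4 ± 1.42 against 6.33 ± 0.928 per 100000 raw reads (SD, n = 3 each). Clone D2 had 222, 149 and 82 without Ku70 and 36, 6 and 16 with it, or 25.2 ± 11.7 against 3.22 ± 2.55 per 100000 (SD, n = 3 each). The groups did not overlap in either clone. The fall was 3.53-fold in D1 and 8.88-fold in D2 (log2 change -2.49, exact permutation p = 0.005, adjusted p = 0.0188), and the exact p within runs was 0.00833. Outside the antigen receptor loci the log2 change was -2.27 (exact permutation p = 0.005, adjusted p = 0.0188).

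Counted as listed, local joins fell further than interchromosomal joins, with and without the G-rich rows. The log2 ratio of local to all interchromosomal joins was 5.74, 5.58 and 5.57 in D1 without Ku70 and 2.08, 1.62 and 1.58 with it, and 3.27, 5.76 and 4.93 against -0.886, -0.782 and -2.34 in D2. It changed by -4.93 (exact permutation p = 0.005, adjusted p = 0.0188). The clones' changes differed by 2.12 ± 0.905 (SE, exact permutation p = 0.55 by relabelling within clones, which cannot decide whether they differ). Without G-rich prey the ratio was 6.80, 6.93 and 6.86 against 4.78, 4.23 and 3.73 in D1, and 6.01, 6.62 and 6.07 against 4.34, 3.42 and 0.628 in D2. Its change was then -3.02 (exact permutation p = 0.005, adjusted p = 0.0188), or -2.61 ± 0.31 (SE) in D1 and -3.43 ± 1.13 (SE) in D2. With each distinct junction counted once, the change was -2.20 against all interchromosomal joins (exact permutation p = 0.005) and -0.31 against those without G-rich prey, which did not pass (exact permutation p = 0.635). With each distinct fragment counted once, the changes were -4.57 and -2.68 (exact permutation p = 0.005 each).

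A few places outside the antigen receptor loci recurred among the joins without G-rich prey. The search took 1-kb windows with at least 4 joins from at least 3 libraries, and was chosen after values were seen, so no test is given. It found 10 joins within 64 bp in Gtf3c4 (chr2:28835270-28835333), a transcription factor subunit gene, 7 within 57 bp in Kdm4b (chr17:56349264-56349320), 6 within 44 bp in Narf (chr11:121237706-121237749), 4 within 23 bp in Spata13 (chr14:60721399-60721421) and 4 within 30 bp in Prepl (chr17:85090221-85090250). All 31 joins came from Lig4-/-Ku70-/- libraries, and each was a distinct joint. The +Ku70 libraries held 172 interchromosomal joins without G-rich prey in all, against 857 in the Lig4-/-Ku70-/- libraries, so that a low number at single places was not detectable at this depth.

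The local joins that remained with Ku70 used microhomology more often. At least 2 bp were shared by bait and prey in 28.2%, 27.2% and 26.5% of local joins of D1 without Ku70 and in 50.3%, 37.9% and 35.1% with it. In D2 the shares were 24.1%, 25.5% and 23.6% without Ku70 and 43.9%, 39.1% and 40% with it, the last from 10 of 25 joins (exact Clopper-Pearson 95% interval 21.1% to 61.3%, counting error only). The groups did not overlap in either clone. The share was higher by 13.8 ± 4.67 percentage points (SE) in D1 and by 16.6 ± 1.56 (SE) in D2, 15.2 on average (exact permutation p = 0.005, adjusted p = 0.0188). The clones' changes differed by -2.77 ± 4.93 points (SE, exact permutation p = 0.795 by relabelling within clones, which cannot decide whether they differ). With at least 3 bp required the mean rise with Ku70 was 7.02 points and no longer passed (exact permutation p = 0.055).

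Blunt joints, with neither shared nor inserted bases, were fewer with Ku70. They were 41.2%, 41.2% and 41.8% of local joins in D1 without Ku70 and 24.2%, 33.0% and 35.3% with it, and 42.6%, 43.1% and 42.0% against 31.8%, 24.6% and 20.0% in D2. The share fell by 13.8 percentage points on average (exact permutation p = 0.005, adjusted p = 0.0188), without overlap in either clone. Joints with 1 shared base fell by 6.56 points (exact permutation p = 0.005, adjusted p = 0.0188), although not when each distinct junction was counted once (0.13 points, exact permutation p = 0.94). Joints with inserted bases rose by 5.17 points (exact permutation p = 0.005, adjusted p = 0.0188), from 4.24% ± 0.574 to 6.76% ± 0.913 in D1 and from 6.61% ± 2.04 to 14.4% ± 5.61 in D2 (SD, n = 3 each). Without the +Ku70 D2 libraries of 69 and 25 local joins, the rise in inserted bases was 2.34 points (exact permutation p = 0.0625), without the library of 25 alone it was 3.77 points, and without Lig4-/-Ku70-/- D2 replicate 2 it was 4.59 points (exact permutation p = 0.055). The mean overlap of joints that had one rose from 1.76 ± 0.0107 to 2.06 ± 0.0861 bp in D1 and from 1.68 ± 0.0369 to 2.11 ± 0.36 bp in D2 (SD, n = 3 each, exact permutation p = 0.005, adjusted p = 0.0188).

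**Figure D2:**
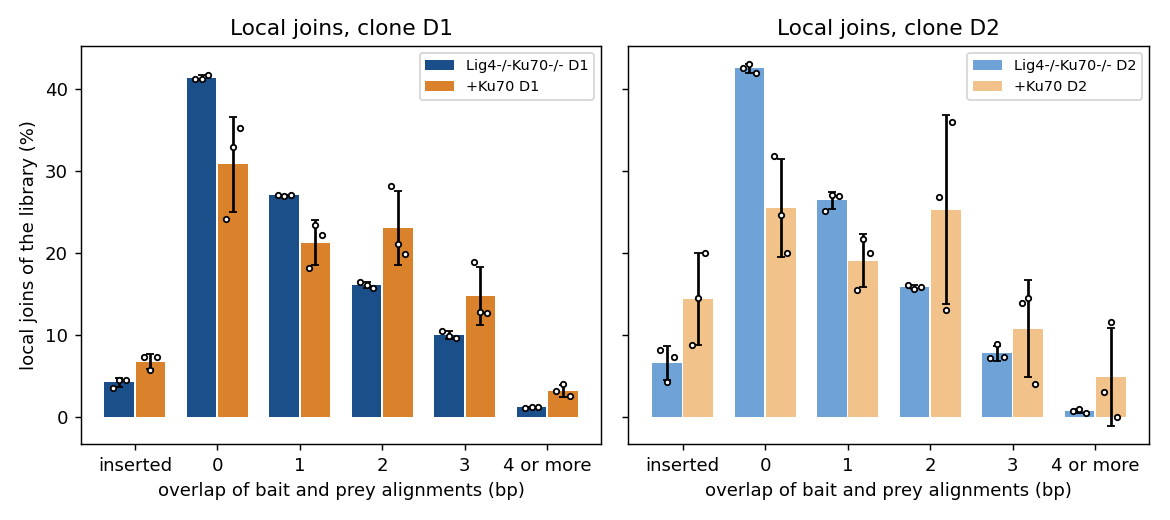
Percent of local joins by overlap of bait and prey alignments, for clone D1 (left) and D2 (right); bars are means of 3 libraries, error bars SD and circles single libraries. Blunt joints (0 bp) are 41.2% to 43.1% of local joins without Ku70 and 20.0% to 35.3% with it, and 2-bp overlaps are higher with Ku70 in D1 and in 2 of the 3 D2 libraries.

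Interchromosomal joins without G-rich prey also used microhomology more often with Ku70. At least 2 bp were shared in 31.5%, 27.0% and 28.9% in D1 without Ku70 and in 63.6%, 75.7% and 77.3% with it. In D2 the shares were 24.3%, 30.9% and 30.5% without Ku70 and 38.9%, 66.7% and 87.5% with it, the last 3 from 36, 6 and 16 joins. The groups did not overlap, and the mean difference was 39.4 percentage points (exact permutation p = 0.005, adjusted p = 0.0188). Joins with overlaps of 8 bp or more, found in 0 to 3 joins per library without Ku70 and in 0 to 7 with it, were kept in these shares. Over all interchromosomal joins, G-rich ones included, the difference was -1.36 points (exact permutation p = 0.69). In Igk joins a difference did not pass the test. The share was 17.8%, 17.8% and 18.7% in D1 without Ku70 and 21.2%, 24.4% and 25.7% with it, and in D2 17.2%, 19.6% and 17.1% without and 32.4%, 0% and 0% with it, the zeros from 2 joins each (difference -0.77 points, exact permutation p = 0.91). Without both of those libraries it was 10.0 points (exact permutation p = 0.0125).

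**Figure D3:**
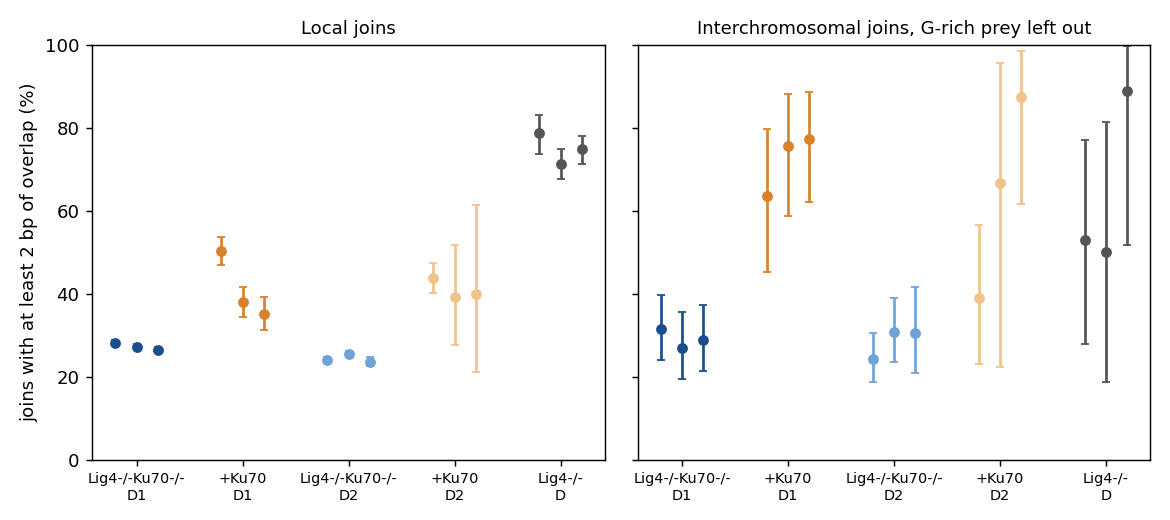
Percent of joins with at least 2 bp of overlap in each library with exact 95% binomial intervals, for local joins (left) and interchromosomal joins without G-rich prey (right). In both panels each +Ku70 library lies above all libraries of its clone without Ku70, and Lig4-/- clone D lies highest for local joins, at 71.4% to 78.7%.

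Long losses on the prey side formed a larger part of the local joins with Ku70. More than 100 bp were lost beyond the break in 0.345%, 0.241% and 0.363% of direct local joins of D1 without Ku70 and in 5.90%, 4.61% and 5.84% with it. In D2 the shares were 0.189%, 0.367% and 0.217% without Ku70 and 3.93%, 8.70% and 0% with it. The last came from a library of 25 such joins (exact Clopper-Pearson 95% interval 0% to 13.7%, counting error only). The D1 groups did not overlap, and the D2 groups did through that library. The mean difference was 4.54 percentage points (exact permutation p = 0.02), which missed 0.05 after adjustment (adjusted p = 0.064). The longest loss among direct local joins was 9561 bp with Ku70 and 4004 bp without it. Typical losses did not separate the groups: library medians were 9 to 12 bp without Ku70 and 10 to 12 bp with it on the prey side (exact permutation p = 0.1), and 7 to 13 bp and 4 to 11 bp on the bait side (exact permutation p = 0.54). The prey-side median was higher with Ku70, with an exact permutation p of 0.025 to 0.04, when Lig4-/-Ku70-/- D1 replicate 1, Lig4-/-Ku70-/- D2 replicate 2 or +Ku70 D2 replicate 3 was left out (log10 changes of 0.0491, 0.0565 and 0.0554). Counted once per distinct junction, the median prey-side loss was lower with Ku70 (log10 change -0.16, exact permutation p = 0.005). Distinct local joints numbered 680 to 1310 per library without Ku70 and 22 to 340 with it. Counts of distinct junctions give rare joints a weight that depends on depth, so Ku70 and depth cannot be told apart in them. The share of direct local joins that lost more than 10 bp was 56.8%, 53.8% and 55.2% in D1 without Ku70 and 59.8%, 55.2% and 61.0% with it, and 42.1%, 53.5% and 38.7% against 57.9%, 56.5% and 48% in D2, a difference of 6.38 points that did not pass (exact permutation p = 0.065). It was 7.24 points without +Ku70 D1 replicate 2 (exact permutation p = 0.035), 8.56 without Lig4-/-Ku70-/- D2 replicate 2 (exact permutation p = 0.03) and 8.27 without +Ku70 D2 replicates 2 and 3 (exact permutation p = 0.05), and -13.6 with each distinct junction counted once (exact permutation p = 0.005), so its direction depends on that choice.

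**Figure D4:**
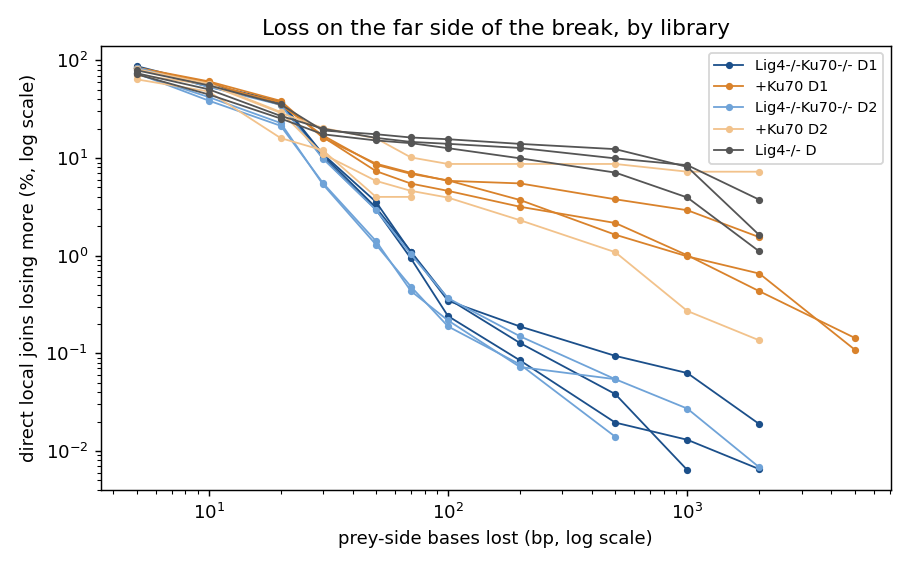
Percent of direct local joins that lost more than a given number of bases beyond the break, by library, both axes logarithmic; points at 0 are not drawn. Beyond 100 bp the 3 +Ku70 D1 libraries (4.61% to 5.90%) and Lig4-/- clone D (12.6% to 15.6%) lie above all libraries without Ku70 (0.189% to 0.367%).

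The joints printed above are given by their mean share of local joins over 3 libraries, with no test. Joint 1, which shares GC, held 1.89% of local joins in D1 without and 2.03% with Ku70, and 2.44% without and 2.28% with Ku70 in D2. Joint 2, a blunt loss of 5 bp, held 1.24% and 1.05% in D1 and 2.35% and 0.585% in D2. Joint 3, which lacks 4 bases at the break, held 1.26% and 1.18% in D1 and 2.10% and 0.675% in D2. Joint 4, which shares TGG and removes 27 bp, held 2.10% and 1.65% in D1 and 1.24% and 0.225% in D2. Joints 2, 3 and 4 were at 0% in the +Ku70 D2 libraries of 69 and 25 local joins. In +Ku70 D2 replicate 1 they held 1.75%, 2.02% and 0.675%. Joint 5, a blunt loss of 42 bp, held 1.97% and 1.27% in D1 and 1.38% and 1.33% in D2. Joints 4 and 5 both end at bait base 41554961, 15 bases short of the break, and so do the Igk and Kdm4b reads shown. That base ended 9.39% to 16.0% of local joins without Ku70 and 0% to 13.8% with it, the 0% from the library of 25 local joins. It ended 3.55% to 7.36% of local joins of Lig4-/- clone D, and 0.381% to 0.527% of those with Lig4 added to clone D.

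Joints 6, 7 and 9, each with 2 or 3 shared bases, had higher mean shares in the +Ku70 libraries, which chose them, so their shares are a description. Their D2 means lean on the libraries of 69 and 25 local joins. In +Ku70 D2 replicate 1 they held 2.02%, 2.16% and 1.08%. Joint 6 held 0.26% of local joins in D1 without and 0.68% with Ku70, and 0.31% and 3.94% in D2. Joint 7 held 0.17% and 1.07% in D1 and 0.18% and 3.39% in D2. Joint 9 held 0.11% and 0.54% in D1 and 0.06% and 3.14% in D2. Joint 8, a blunt loss of 1 bp, was chosen on 16 joins in all 12 libraries, and its mean of 3.72% in +Ku70 D2 came mostly from the libraries of 69 and 25 local joins. Distinct local joints numbered 680 to 1310 per library without Ku70 and 22 to 340 with it. In D1, 67.4% to 78.0% of the joints of a +Ku70 library were also in the library of the same number without Ku70, which is 16.4% to 17.7% of the joints of the latter. In D2 the corresponding shares were 76.3%, 70.6% and 77.3% of the joints with Ku70 and 20.4%, 2.95% and 2.5% of those without it. Such shares depend on the depth of both libraries. Sharing between libraries of the same group is not given, so they do not show how alike the groups are.

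The +Ku70 libraries were set beside those of Lig4-/- clone D, which carries its own Ku70. Lig4-/- clone D had 314, 639 and 647 local joins, against 589 to 921 in +Ku70 D1 and 25 to 741 in +Ku70 D2, and the ranges overlapped. The log2 difference of local joins from clone D was 0.52 for D1 and -2.21 for D2, with an exact permutation p of 0.4 in each, where 3 against 3 cannot go below 0.1. Clone D had 5, 7 and 7 Igk joins against 52, 41 and 35 in +Ku70 D1 and 37, 2 and 2 in +Ku70 D2. Its interchromosomal joins without G-rich prey numbered 17, 10 and 9. They shared at least 2 bp in 52.9%, 50% and 88.9%, a range that overlapped those of both +Ku70 groups. The local joins of clone D shared at least 2 bp in 78.7%, 71.4% and 74.8%, above every +Ku70 library. That share differed from clone D by -33.8 points in +Ku70 D1 and by -33.9 in +Ku70 D2 (exact permutation p = 0.1 each, without overlap). Losses above 100 bp took 14.1% ± 1.48 of direct local joins in clone D, against 5.45% ± 0.729 in +Ku70 D1 and 4.21% ± 4.35 in +Ku70 D2 (SD, n = 3 each).

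The same add-back was made at a Cas9 break in c-Myc on chromosome 15 in clones A1_1 and C1, 12 libraries sequenced on a MiSeq and held to raw-read numbers of 201858 and 273198. Local joins there changed by -6.28 in A1_1 and -4.41 in C1 on the log2 scale, and the mean change at the ZFN break differed from theirs by -0.17 (exact permutation p = 0.95). Igk joins changed by -4.16 on average at the Cas9 break, which differed by 1.75 from the ZFN break (exact permutation p = 0.488, adjusted p = 0.585 over 6 measures). The share of local joins with at least 2 bp of overlap changed by 0.03 and 4.08 points in A1_1 and C1, 13.2 points less on average than at the ZFN break (exact permutation p = 0.0207, adjusted p = 0.124 over 6 measures). No G-rich prey was listed in any of those 12 libraries. The tests between the breaks relabelled libraries within each clone, so their reference spread holds the effect of Ku70 itself. They cannot decide whether the changes at the breaks differ or are alike. Nuclease, locus, clone and sequencer cannot be told apart in these comparisons.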

How the data were processed

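LAM-HTGTS-type libraries were made per the labels' protocols with the enzyme blocking step omitted, and the deposited lists came from the pipeline the labels name JoinT-seq. Bowtie2 and the mm10 build are named, without a version or role, in the submitters' processing notes. The deposited lists hold 1 row per read, with positions and read coordinates and no normalized unit. Whether rows were deduplicated is not given in the sources used here. In Lig4-/-Ku70-/- D1 replicate 1, 971 Igk joins lay in 970 distinct joints and 15943 local joins in 1296. Interchromosomal joins without G-rich prey changed by -2.49 with or without repeated junctions. Ratios of local joins to either class therefore set repeated rows against rows that were nearly all distinct. From the deposited lists, overlap (bait end minus prey start on the read, plus 1), distances and prey G content were computed. Numbers were divided by the 600000 raw reads of the labels, and log2 used a pseudocount of 0.5. Windows, classes and tests are as stated above, in Python 3.11.15 with numpy, pandas and scipy, and scripts were tested on simulated data. Genes came from a RefSeq table of GRCm38.p6, which has mm10 coordinates and gene spans only. No pair of libraries in a group shared a read name. In chi-square tests over joints, which treat joins as independent, 3 replicate pairs, all of small +Ku70 libraries, did not differ (p from 0.0908 to 0.654). All libraries were kept. Of these pairs, replicates 2 and 3 of +Ku70 D1 shared none of 41 and 35 Igk fragments, and no such check is given for the D2 pairs. Replicates 2 and 3 of +Ku70 D2 held too few joins for the test. The experiment, members and measures were chosen with earlier results of these data known. The named joints and windows follow the rule given where they appear.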

Additional observations from a re-analysis of the deposited data

Results flagged for a closer look

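The effect of added Ku70 on the microhomology share of local joins differed between the ZFN break and the Cas9 break by 13.2 percentage points (15.2 against 2.06, exact permutation p = 0.0207, adjusted p = 0.124 over 6 measures). It was 4.94 points with each distinct junction counted once and 5.16 points with at least 3 bp required, and passed in neither case. The test relabelled libraries within each clone, so it cannot decide whether the effects at the breaks differ. Nuclease, locus, clone and sequencer cannot be told apart.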

How the results depend on the processing

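Over 44 results and 1017 alternative values, 894 kept their direction and side of 0.05, 61 no longer passed, 24 newly passed and 38 changed sign. Each clone alone cannot pass: local joins changed by -4.43 (log2) in D1 and -6.59 in D2, Igk joins by -4.67 and -7.14, interchromosomal joins without G-rich prey by -1.82 and -3.15, the ratio of local to interchromosomal joins by -3.87 and -5.99, and the microhomology share of local joins by 13.8 and 16.6 points. With at least 3 bp required that share changed by 7.02 points. The labels do not tie same-numbered libraries, and their joint shares did not meet the condition for pairing (6 correlations over 109 joints, from -0.03 to 0.10, 1 of them above 0.1), although same-numbered D2 libraries share a run. With the replicate block all interchromosomal joins changed by -0.58 (exact p = 0.0312), as within runs (exact p = 0.00833), and the share that lost more than 10 bp by 6.38 points (exact p = 0.0312). Without prey of at least 80% G that change was -2.49, and without prey of at least 50% G it was -2.53. Leaving out 1 library at a time gave -1.16 (without +Ku70 D2 replicate 1, exact p = 0.045) to -0.12 (without Lig4-/-Ku70-/- D2 replicate 1).

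Some values changed sign. The median prey-side loss and the share of direct local joins that lost more than 10 bp passed 0.05 in both signs under different alternatives, the lower values with each distinct junction counted once. Without both +Ku70 D2 libraries of fewer than 100 local joins, an alternative added after the data were seen, the log2 changes were 0.57 for all interchromosomal joins, 0.19 for inverted local joins, 0.95 for joins in the recurrent windows, 0.54 for interchromosomal joins outside them and 1.18 for G-rich joins, local joins of D2 differed from Lig4-/- clone D by 0.55, local joins differed between ZFN and Cas9 by 1.21, and the microhomology share of Igk joins rose by 10.0 points. In D2 alone, joins in the recurrent windows changed by 0.0038 and G-rich joins by 0.0203. Without G-rich prey the former changed by 0.26, and the microhomology share of interchromosomal joins by 39.4 points (41.0 without prey of at least 50% G). In D1 alone the microhomology shares of Igk and of all interchromosomal joins changed by 5.65 and 1.99 points. The Igk share changed by 7.63 points at a minimum of 1 bp and by 2.19 at 3 bp, and the interchromosomal share by 1.31 at 3 bp. With each distinct junction counted once, joints with 1 shared base changed by 0.13 points, the median prey-side loss by -0.16 (log10), joins that lost more than 10 bp by -13.6 points, and local joins differed between ZFN and Cas9 by 0.65.

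Leaving out 1 library at a time gave -0.76 to 0.38 for joins in the recurrent windows, -0.60 to 0.58 for G-rich joins, -0.0845 to 0.0105 for the bait-side loss (log10), -6.17 to 1.93 points for the microhomology share of Igk joins, -3.43 to 0.0166 points for that of all interchromosomal joins, -7.34 to 0.22 points for the difference between clones in that of local joins, -0.22 to 1.03 for interchromosomal joins without G-rich prey in +Ku70 D2 against Lig4-/- clone D, and -0.86 to 0.36 for local joins at the ZFN against the Cas9 break. The difference between ZFN and Cas9 breaks in the microhomology share was 4.94 points with each distinct junction once, 5.16 at 3 bp, 11.8 with each distinct fragment once and 13.2 with the replicate block, where it no longer passed. The +Ku70 libraries of 69 and 25 local joins limit what clone D2 can show.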
